A study of Arabidopsis thaliana with 8 samples.

Results

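Stomata are pores in the leaf epidermis, each bounded by a pair of guard cells that swell to open the pore and shrink to close it. The 10 genes described here act in making or running these cells and were taken by name, as loci: SPCH, MUTE, FAMA, TMM, SDD1, EPF2, EPFL9, MYB60, KAT1 and SLAC1. All 10 had a probe on the array, and 8 of them were among the 25102 genes tested. MUTE and EPF2 were too dim to test.

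Agilent 1-colour arrays read the transcripts of leaves from Arabidopsis thaliana plants aged 54 days. The 4 arrays of transgenic leaves came from plants in the Col-0 background that carry 35S::Rap2.9-GFP, which makes the AP2/ERF factor RAP2.9 as a fusion to green fluorescent protein (GFP) from a viral promoter that is active in most plant tissues. The labels call them a transgenic line, and how many independent lines were used is not given there. The 4 other arrays came from wild-type Col-0 leaves, and all plants grew together without treatment, for 20 days with 8 h of light and then 34 days with 12 h of light. The labels name whole leaves, so a gene of a rare epidermal cell is read against the RNA of all other leaf cells, and fewer cells of a type cannot be told apart from less RNA per cell.

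As background, stomata arise through a short lineage of epidermal divisions. The basic helix-loop-helix (bHLH) factors SPCH, MUTE and FAMA act one after the other, from the start of the lineage to the last division that gives the guard cells, each with a partner of the ICE1 and SCRM2 pair. Secreted peptides of the EPF family set how many cells enter: EPF2 holds the lineage back, while EPFL9, also called stomagen, promotes it. Both are sensed by receptor kinases of the ERECTA family together with the receptor-like protein TMM, and a MAP kinase cascade carries the signal. Mature guard cells are known for ion channels such as the potassium inward channel KAT1 and the anion channel SLAC1.

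Values are on a log2 scale, with each array's 75th percentile of processed signal set to 0, and each unit is a doubling. Levels of different genes come from different probes and are not compared. Genes were compared between genotypes with limma, and a gene passed at an adjusted p under 0.05 over all genes tested. Each of the 2 slides carried 2 wild-type and 2 transgenic arrays. Between 72.5% and 84.3% of probes per array were well above background, the scanner software's flag for a measurable spot. The highest share was on transgenic replicate 1, where the median signal of the negative control spots was also highest, at 9.58 against 1.88 to 5.61 on the other arrays. Pearson's r between arrays across probes, which are not independent replicates, was 0.982 to 0.993 within a genotype and 0.964 to 0.977 between them. The brighter RAP2.9 probe was 17.7-fold higher in the transgenic leaves (log2 change 4.14 ± 0.15, SE, n = 4 per genotype, limma adjusted p = 6.44e-06), and the other fell by 1.77.

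In the transgenic leaves TMM, FAMA, MYB60 and KAT1 were higher, by 1.30-fold to 1.49-fold. SPCH, SDD1, EPFL9 and SLAC1 did not pass the threshold. None of the 8 tested genes was lower past the threshold, by limma. There 5 of the 8 had an unadjusted p under 0.05, the fifth being SLAC1 on the lower side, as had 11391 of all 25102 genes. Of all genes tested, 34.5% passed, with 18.6% higher and 15.9% lower, so a passing change is common in these data. Of the passing genes 53.9% were higher, and 38.6% with median scaling. The median log2 change was 0.39 over the 8 genes and 0.03 over all genes. The genotypes' arrays did not overlap for TMM, FAMA, MYB60 and KAT1, each higher in the transgenic leaves, as was so for 19.8% of all genes. With normexp, another background correction, no gene of the 8 passed in limma. There 4 had an unadjusted p under 0.05, as had 6035 of all 25102 genes.

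**Figure D1:**
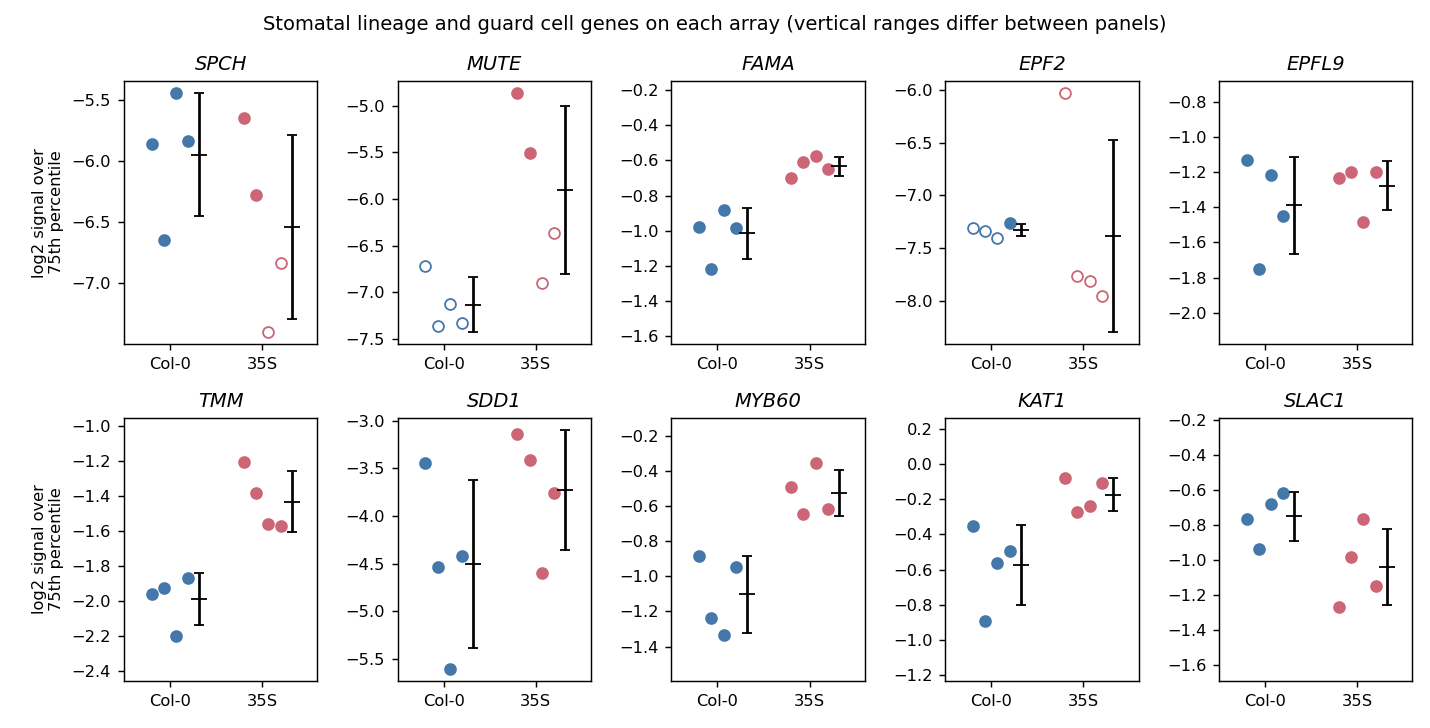
Each panel plots 1 gene, with log2 signal on the vertical axis, scaled to the 75th percentile, and the 4 arrays of each genotype as points (35S stands for 35S::Rap2.9-GFP). Filled points are well above background and open points are not, and the black mark and bar give the mean and SD. The genotypes separate for FAMA, TMM, MYB60 and KAT1, and all wild-type points of MUTE are open.

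Of the secreted peptides, EPFL9 (AT4G12970) was measured well above background on all 8 arrays. EPFL9 read -1.13, -1.75, -1.22 and -1.45 on wild-type replicates 1 to 4 and -1.23, -1.20, -1.49 and -1.20 on transgenic replicates 1 to 4. The ranges overlap nearly throughout. The means were -1.39 ± 0.28 (SD, n = 4) and -1.28 ± 0.14 (SD, n = 4), and the log2 change was 0.11 ± 0.14 (SE, limma adjusted p = 0.588). Its 95% interval ran from -0.23 to 0.44.

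EPF2 (AT1G34245), the peptide that holds back entry into the lineage, was at background. Its processed signal was 13.6, 12.8, 10.2 and 11.3 on wild-type replicates 1 to 4 and 39.6, 7.87, 11.49 and 10.39 on transgenic replicates 1 to 4. It rose clear of background in 1 of 4 wild-type and 0 of 4 transgenic samples. The one high value belongs to transgenic replicate 1, where no spot under 41.4 was well above background. No difference was detectable at these signals, and no fold is given.

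SDD1 (AT1G04110) codes for a subtilisin-like protease that limits the number of stomata. Its values were -3.45, -4.53, -5.60 and -4.42 in the wild type and -3.14, -3.42, -4.60 and -3.76 in the transgenic leaves, in replicate order. They spread over more than 2 log2 units in the wild type and the genotypes overlap. The log2 change of 0.77 ± 0.49 (SE) did not pass (limma adjusted p = 0.255), with a 95% interval from -0.36 to 1.91. It was 0.41 without wild-type replicate 3 and 1.13 without wild-type replicate 1, and did not pass in either. Wild-type replicate 3, the lowest array for SDD1, was also the lowest wild-type array for 7 of 8 markers of dividing cells and for 5 of 5 xylem markers. Whether the mix of tissue bears on SDD1 was not tested.

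TMM (AT1G80080) is the receptor-like protein that acts with the ERECTA family in sensing EPF peptides, and it is also listed among the receptor-like proteins as AtRLP17. It read -1.96, -1.93, -2.20 and -1.87 on the wild-type arrays and -1.21, -1.38, -1.56 and -1.58 on the transgenic arrays, in replicate order. Every transgenic array lay above every wild-type array. TMM rose 1.47-fold, with means of -1.99 ± 0.15 (SD, n = 4) and -1.43 ± 0.17 (SD, n = 4) and a log2 change of 0.56 ± 0.11 (SE, limma adjusted p = 0.00697). The rise was 0.60 on slide 1 and 0.51 on slide 2. TMM kept its call whichever of the 8 arrays was dropped, and lost it with normexp (adjusted p = 0.206).

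The bHLH factors at the start of the lineage were near the limit of the array. SPCH (AT5G53210) was measurable over background in 4 of 4 wild-type and 2 of 4 transgenic samples. Its processed signal was 37.1, 20.5, 39.8 and 30.2 on wild-type replicates 1 to 4 and 51.5, 22.0, 15.3 and 22.5 on transgenic replicates 1 to 4. The highest transgenic value is again that of replicate 1. The log2 change was -0.59 ± 0.41 (SE, limma adjusted p = 0.294), with a 95% interval from -1.54 to 0.35. With quantile normalization SPCH passed as lower, at -1.11 (limma adjusted p = 0.0318), and with the authors' deposited values it was at -1.11 (adjusted p = 0.0324). On leaving out each array in turn its change ran from -0.89, without transgenic replicate 1, to -0.31, without transgenic replicate 3, and did not pass in any of the 8 fits.

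MUTE (AT3G06120), which ends the divisions of the lineage's precursor cell, was above background on 0 of 4 wild-type arrays and on 2 of 4 transgenic arrays. Its processed signal was 20.6, 12.5, 12.4 and 10.8 on wild-type replicates 1 to 4 and 88.7, 37.6, 21.7 and 31.2 on transgenic replicates 1 to 4. The arrays above background were transgenic replicates 1 and 2, and replicate 3 lay within the wild-type range once scaled. It was below the filter, and with no filter it did not pass (limma adjusted p = 0.0987). Without transgenic replicate 1 the measured difference in means was 0.88 log2 units in place of 1.23. These differences are not read as a fold of the transcript, because 6 of the 8 values were not well above background.

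FAMA (AT3G24140), which acts at the last division and keeps guard cells in their fate, was bright on all arrays. It read -0.98, -1.22, -0.88 and -0.98 on the wild-type arrays and -0.70, -0.61, -0.58 and -0.65 on the transgenic arrays, in replicate order. The transgenic arrays lay close together and above every wild-type array. FAMA rose 1.30-fold, from -1.02 ± 0.14 (SD, n = 4) to -0.63 ± 0.05 (SD, n = 4), a log2 change of 0.38 ± 0.08 (SE, limma adjusted p = 0.00900). It rose by 0.30 on slide 1 and 0.46 on slide 2, and its call held whichever of the 8 arrays was dropped. With normexp the adjusted p was 0.18.

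MYB60 (AT1G08810) is a MYB transcription factor of guard cells that takes part in opening the pore. Its brighter probe read -0.88, -1.24, -1.34 and -0.95 on the wild-type arrays and -0.49, -0.64, -0.36 and -0.61 on the transgenic arrays, in replicate order. The genotypes did not overlap. MYB60 rose 1.49-fold. Its means were -1.10 ± 0.22 and -0.53 ± 0.13 (SD, n = 4 each) and its log2 change was 0.58 ± 0.12 (SE, limma adjusted p = 0.00952). Its second probe, also free of overlap, gave a log2 change of 0.55 ± 0.10 (SE, limma adjusted p over all probes of 0.00432). MYB60 was the only one of the 10 genes with more than 1 probe. Its call held whichever of the 8 arrays was dropped, but not with normexp (adjusted p = 0.0775).

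KAT1 (AT5G46240) codes for a channel that lets potassium into guard cells as they swell. It read -0.35, -0.89, -0.56 and -0.49 on the wild-type arrays and -0.08, -0.27, -0.24 and -0.11 on the transgenic arrays, in replicate order. The genotypes did not overlap, but the lowest transgenic array lay only just above the highest wild-type array. KAT1 rose 1.32-fold, with a log2 change of 0.40 ± 0.12 (SE, limma adjusted p = 0.0332). This call was lost on dropping any of 5 arrays. The adjusted p was 0.0697 without wild-type replicate 3, 0.059 without wild-type replicate 4, and 0.0746, 0.0582 and 0.0795 without transgenic replicates 1, 3 and 4. It was lost as well with normexp (0.134), median scaling (0.0768) and no filter on dim probes (0.0609).

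SLAC1 (AT1G12480, listed as OZS1 in the gene table) codes for the anion channel through which guard cells lose anions as the pore closes. It read -0.77, -0.94, -0.68 and -0.61 on the wild-type arrays and -1.27, -0.98, -0.76 and -1.15 on the transgenic arrays, in replicate order. Transgenic replicate 3 fell within the wild-type range and the other 3 transgenic arrays lay under it. The log2 change was -0.29 ± 0.12 (SE), with a 95% interval from -0.57 to -0.01, and did not pass over all genes (limma adjusted p = 0.105). Without transgenic replicate 3 it was -0.38 (adjusted p = 0.0374).

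**Figure D2:**
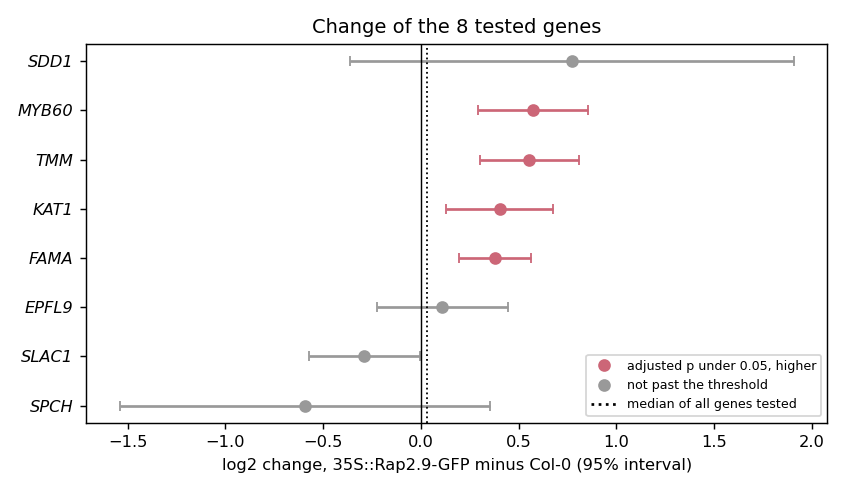
Points give the log2 change between genotypes for each of the 8 tested genes and bars the 95% interval from limma, with red for genes past the threshold and grey for the others. The intervals of MYB60, TMM, KAT1 and FAMA lie above 0 and above the dotted line at 0.03, the median of all genes, while those of SDD1 and SPCH span more than 1 log2 unit.

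Because SLAC1 and KAT1 both serve mature guard cells, the changes of the genes were also set against each other within each array, which no scaling of an array can move. This was done after the values were seen, for all 28 pairs of the 8 tested genes. The difference between KAT1 and SLAC1 was 0.69 log2 units larger in the transgenic leaves. For FAMA against SLAC1 the shift was 0.67, for TMM 0.85 and for MYB60 0.87. In each of these 4 pairs the genotypes did not overlap, and the exact permutation test, two-sided, gave p = 0.0286, the smallest that 4 against 4 arrays allow. The pair of MYB60 with EPFL9, at 0.47, did not overlap either. Nor did SDD1 and SPCH, but SPCH was not well above background on 2 of the 4 transgenic arrays, so no size is given. Adjusted over the 28 pairs, the lowest exact permutation p was 0.133, so none of the 28 passed. KAT1, FAMA, TMM and MYB60 had each separated alone as higher, and SLAC1 had a change of -0.29. Their separation against SLAC1 is thus in part carried over from the single genes, of which 36.7% of all those tested did not overlap. How often pairs drawn from all genes separate was not tested. The changes of TMM and MYB60 differed by 0.02 log2 units, and so did those of KAT1 and FAMA, with SDs of the within-array difference from 0.15 to 0.23.

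**Figure D3:**
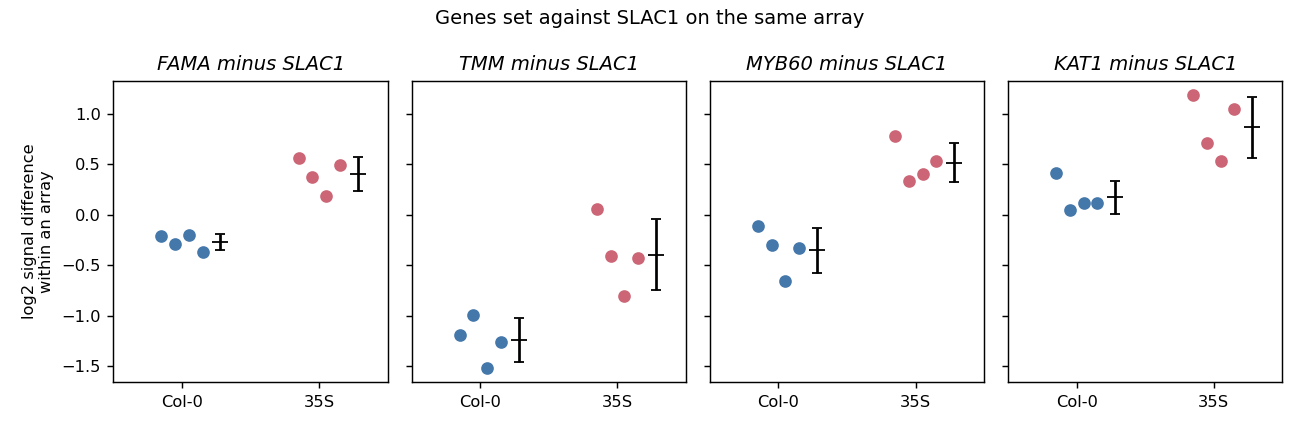
Each panel plots, for every array, the log2 signal of a gene minus that of SLAC1 on the same array, with the mean and SD beside the points. All 4 transgenic arrays lie above the wild-type arrays in each panel, and the shift is largest for MYB60, at 0.87, and for TMM, at 0.85.

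Further genes of the pathway were taken from 4 lists that were set by role, with earlier results of these data known. Of their 62 genes, 3 had no matched probe and 3 were below the filter, and of the 56 tested 17 were higher and 8 lower, while 31 did not pass. That is 25 of 56, where 34.5% of all genes passed (18.6% higher and 15.9% lower). Without wild-type replicate 2, 3 or 4 or transgenic replicate 4 the 25 calls became 14. Over all 25102 genes the calls fell as well in those fits, from 8672 to 7282, 6880, 6570 and 6884. Without transgenic replicate 1 the pathway calls became 16 (7482 over all genes) and without transgenic replicate 3 they became 15 (7222). Without wild-type replicate 1 they became 23 (7678) and without transgenic replicate 2 they became 27 (8342). With median scaling 9 were higher and 9 lower, where 3196 of all 25102 genes were higher and 5080 lower. With normexp 7 genes passed, where 2784 of all genes did. These were ER, ATSBT5.2, FLP, GORK, CA1, AT1G22690 and the proton pump gene AHA2. Over the 56 tested genes, the genotypes' arrays did not overlap for 17 that were higher and 7 that were lower, where 36.7% of all genes did not overlap. The median log2 change was 0.17, against 0.03 over all genes.

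Of 10 tested genes for peptides, their protease and the receptors, 2 were higher and 4 lower, and 4 did not pass, with a median of -0.05. Over all genes 18.6% were higher and 15.9% lower. ER (AT2G26330), the receptor kinase ERECTA, fell by 0.77 ± 0.06 (SE) on the log2 scale, from 1.79, 1.66, 1.54 and 1.69 on the wild-type arrays to 0.92, 0.85, 0.89 and 0.95 on the transgenic arrays, in replicate order. The genotypes lay clearly apart, and its limma adjusted p was 0.00019. Its relative ERL2 (AT5G07180) rose by 0.34 ± 0.08 (SE, limma adjusted p = 0.0169), and did not pass in 5 of the 14 other ways of processing that kept all arrays, among them normexp, where the change was -0.02, and quantile normalization, where it was 0.20. ATSBT5.2 (AT1G20160), a subtilisin-like protease, rose by 0.62 ± 0.09 (SE, limma adjusted p = 0.00162), and every transgenic array lay above the wild type.

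The peptide gene EPFL6 (AT2G30370), whose product also signals through ERECTA receptors, fell by 0.54 ± 0.18 (SE, limma adjusted p = 0.0478). The genotypes overlapped, and the call was lost on dropping any array other than transgenic replicate 2 (adjusted p from 0.0608 to 0.108). The others that fell, named after their values were seen, were EPFL5 by 0.26 and the co-receptor gene BAK1 by 0.18, a call lost without wild-type replicate 2 or 4 or transgenic replicate 3 or 4 (adjusted p from 0.0586 to 0.075). The second BAK1 probe did not pass (-0.17, limma adjusted p over all probes of 0.482). The third receptor gene of the family, ERL1, was below the filter. Of 7 genes of the MAP kinase cascade 1 was higher and 1 lower, and 5 did not pass, where 34.5% of all genes passed. MPK6 (AT2G43790) rose by 0.16 ± 0.05 (SE, limma adjusted p = 0.0401) and MKK9 (AT1G73500) fell by 0.47 ± 0.14 (SE, limma adjusted p = 0.0372). The MPK6 call was lost on dropping any array other than transgenic replicate 2 (adjusted p from 0.0653 to 0.105), and the MKK9 call on dropping any other than wild-type replicate 1 (0.0564 to 0.0858). The second MKK9 probe did not pass (-0.32, limma adjusted p over all probes of 0.169).

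Of 9 tested regulators of the lineage, 5 were higher and 0 lower by limma, 4 did not pass, and all 9 had a change above 0, with a median of 0.29. Among all genes 18.6% were higher, and 13471 of 25102 had a change above 0. FLP (AT1G14350), a MYB factor that limits the last division of the lineage, was 2.47-fold higher. It read -0.77, -0.89, -1.10 and -1.14 on the wild-type arrays and 0.27, 0.41, 0.41 and 0.23 on the transgenic arrays, in replicate order. The genotypes lay far apart, with a change of 1.31 ± 0.10 (SE, limma adjusted p = 0.00012). Its second probe rose by 0.80 (limma adjusted p over all probes of 0.0276). FLP passed in every alternative that was run.

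MYB88 (AT2G02820), the close relative of FLP, rose by 0.65 ± 0.14 (SE, limma adjusted p = 0.0116). Of its 4 probes, another passed at 0.82, and 2 did not pass, at 0.34 and 0.39. ATBRXL2 (AT3G14000), of the BREVIS RADIX-like family, rose by 0.57 ± 0.13 (SE, limma adjusted p = 0.0130), with 0.71 for its other probe. SCRM2 (AT1G12860), the bHLH partner of SPCH, MUTE and FAMA, rose by 0.29 ± 0.09 (SE, limma adjusted p = 0.0490), with overlapping genotypes, and the call was lost on dropping any array other than transgenic replicate 2 (adjusted p from 0.0632 to 0.114). The second SCRM2 probe did not pass (0.27, limma adjusted p over all probes of 0.354). ICE1, the relative of SCRM2, had a change of 0.23 ± 0.08 (SE, limma adjusted p = 0.055). The homeodomain gene HDG2, named after its value was seen, rose by 0.24 and lost the call on dropping the same arrays as SCRM2 (adjusted p from 0.0762 to 0.114). Its second probe did not pass (0.41, limma adjusted p over all probes of 0.456).

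**Figure D4:**
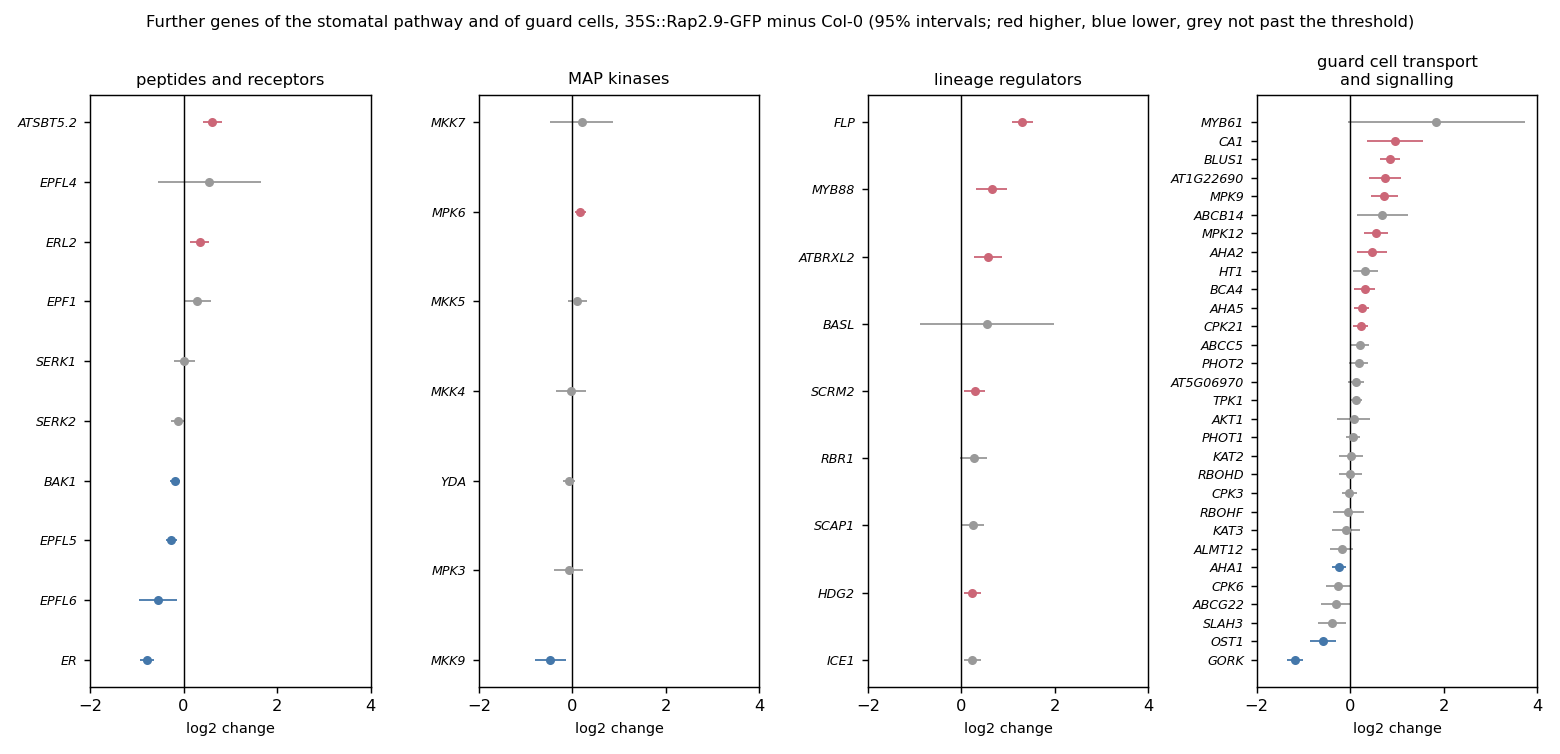
Points give the log2 change between genotypes and bars the 95% interval for the 56 tested genes of the 4 lists, 1 list per panel. Red genes were higher past the threshold, blue genes lower and grey genes not past it, and FLP at 1.31 and GORK at -1.18 stand at opposite ends of the called genes.

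Of 30 tested genes for guard cell transport and signalling, 9 were higher and 3 lower, and 18 did not pass, with a median of 0.13. Over all genes 18.6% were higher and 15.9% lower, with a median of 0.03. GORK (AT5G37500), the channel through which potassium leaves guard cells, fell 2.26-fold. It read -1.47, -1.22, -1.33 and -1.40 on the wild-type arrays and -2.48, -2.59, -2.46 and -2.61 on the transgenic arrays, in replicate order. The genotypes lay far apart, with a change of -1.18 ± 0.07 (SE, limma adjusted p = 5.32e-05), and GORK passed in every alternative that was run. Of the other potassium channel genes of the KAT and AKT kind, KAT2 had a change of 0.02 ± 0.11 (SE, limma adjusted p = 0.908), KAT3 of -0.10 ± 0.13 (SE, adjusted p = 0.585) and AKT1 of 0.07 ± 0.15 (SE, adjusted p = 0.743). The sign of KAT2 turned with the scaling.

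BLUS1 (AT4G14480), a kinase of the blue light response that opens stomata, rose by 0.85 ± 0.10 (SE, limma adjusted p = 0.000659). It read -2.36, -2.48, -2.41 and -2.20 on the wild-type arrays and -1.42, -1.73, -1.40 and -1.49 on the transgenic arrays, in replicate order, without overlap. AT1G22690, which has no name in the gene table, rose by 0.74 ± 0.15 (SE, limma adjusted p = 0.00779). The carbonic anhydrase gene CA1 (AT3G01500), which mesophyll cells also express, rose by 0.96 ± 0.25 (SE, limma adjusted p = 0.0236). The adjusted p of CA1 was 0.0572 without wild-type replicate 2, 0.059 without wild-type replicate 3, 0.0544 without transgenic replicate 1 and 0.0614 without transgenic replicate 4.

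The others of this list that rose, named after their values were seen, were the MAP kinase genes MPK9, by 0.73 ± 0.12 (SE, limma adjusted p = 0.00339), and MPK12, by 0.55 ± 0.11 (SE, limma adjusted p = 0.00842), and AHA2, BCA4, AHA5 and CPK21, by 0.46, 0.31, 0.24 and 0.22. The second MPK9 probe did not pass (limma adjusted p over all probes of 0.0604). The calls of MPK9 and MPK12 held whichever of the 8 arrays was dropped, and both calls were lost with normexp (adjusted p = 0.109 and 0.0854). On dropping 1 array AHA2 lost its call in 5 of 8 fits, BCA4 in 6, and AHA5 and CPK21 in 7 each, where the adjusted p reached 0.0851, 0.0967, 0.0816 and 0.0856.

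The 2 other genes of this list that fell were named after their values were seen. OST1 (AT4G33950), the kinase that activates SLAC1 in response to abscisic acid, fell by 0.59 ± 0.12 (SE, limma adjusted p = 0.00774). Its call held whichever of the 8 arrays was dropped. It was lost in 2 of the 14 other ways of processing that kept all arrays (limma adjusted p up to 0.413). The proton pump gene AHA1 fell by 0.23 ± 0.06 (SE, limma adjusted p = 0.0279). AHA1 lost the call on dropping any array other than wild-type replicate 1 or transgenic replicate 3 (adjusted p from 0.0511 to 0.0738). Its dimmer probes did not pass, at -0.12 and -0.32 (limma adjusted p over all probes of 0.252 and 0.0897). SLAH3, a relative of SLAC1, had a change of -0.39 ± 0.13 (SE) and did not pass (limma adjusted p = 0.0525).

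Markers of other cell types were read the same way, against the 18.6% of all genes that were higher and the 15.9% that were lower. Of 8 markers of dividing cells 5 were higher and 0 lower by limma, with a median of 0.95. Their summed signal, as multiples of the 75th percentile, was 0.355 to 0.745 on the wild-type arrays and 0.785 to 1.21 on the transgenic arrays. Without transgenic replicate 1, 1 of the 8 passed and the median was 0.85. The second probe of CYCA2;3, a marker called by its brighter probe, did not pass (0.61, limma adjusted p over all probes of 0.201). Of 6 epidermis markers 4 were higher and 0 lower, with a median of 0.36, and still 4 without transgenic replicate 1. Their sums were 55.3 to 71.2 and 65.4 to 76.2, and LTP1, which weighs most in them, had a change of -0.01. Among the called markers, dimmer probes did not pass for ATML1 (0.17), FDH (0.15) and in part CER6 (0.07 and 0.18). Other CER6 probes passed, at 0.50, 0.46 and 0.40, as did the second PDF2 probe, at 0.32. All 5 xylem markers were higher (0.629 to 1.56 against 1.57 to 2.45), with a median of 1.24. Without transgenic replicate 1, 3 of them passed and the median was 1.12. Of 5 mesophyll markers 1, LHCB2.1, was higher by its brightest probe (683 to 813 against 633 to 893). Dimmer probes of the others passed as higher in part, at 0.54, 0.80 and 0.90 for LHCB3, at 0.35, 0.53 and 0.64 for 3 of the 13 RBCS1A probes and at 0.42 for LHCA1. Of 5 phloem markers 2 were lower (21.1 to 25.0 against 16.2 to 19.3), and 1 without transgenic replicate 1. A dimmer SUC2 probe passed as lower, at -0.39, and another did not, at -0.23. The dimmer SWEET11 probe passed as lower, at -0.71. Of 3 tested trichome markers 0 passed by limma (0.278 to 0.32 against 0.275 to 0.352 for all 5), and GL1 was above background on no array. The part of these cell types in the changes of the stomatal genes was not tested.

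MYB60 had the largest log2 change among the 4 genes that passed, and the genes most like it were sought by the root mean square difference of values over the 8 arrays, each gene centred on its own mean. Among 20166 other loci the closest was NEK2 (AT3G04810), a kinase gene of the NIMA-related family, at 0.0593 log2 units, followed by AT2G40620 at 0.0718 and AT1G75880 at 0.0784. These 3 genes rose by 0.61 ± 0.11, 0.56 ± 0.14 and 0.49 ± 0.11 (SE). The measure takes in the difference between the genotypes. A rise near that of MYB60 was therefore set by the choice and is not a separate result. The measure rests on 8 arrays, and none of the 3 is among the genes listed here.

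**Figure D5:**
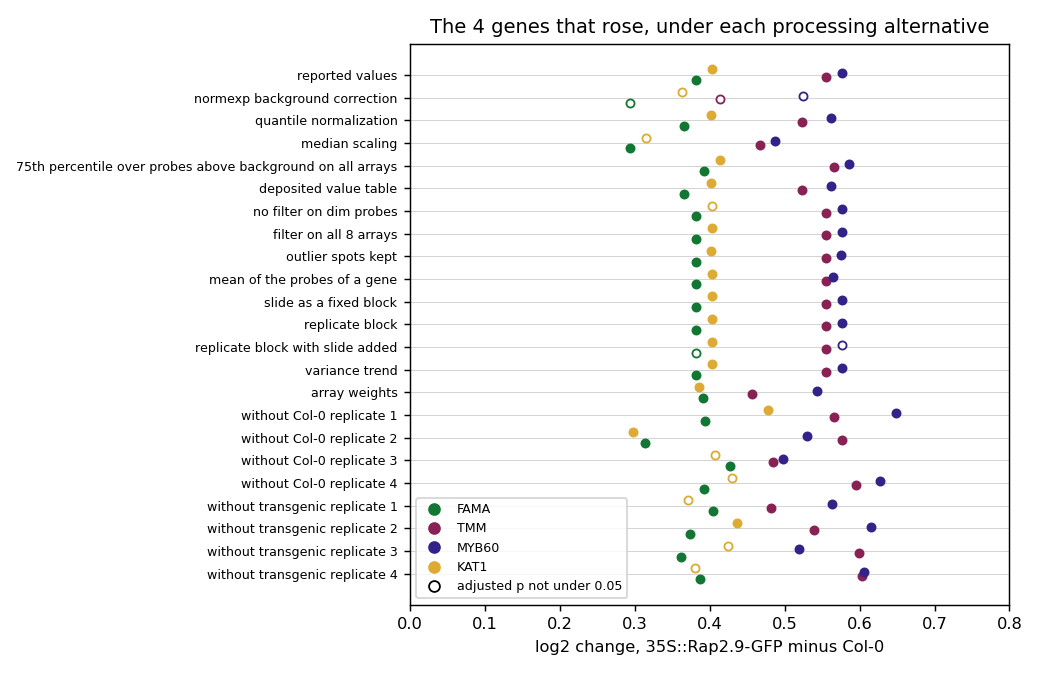
For FAMA, TMM, MYB60 and KAT1 the points give the log2 change between genotypes under each way of processing the data, 1 line each, filled where the gene passed and open where it did not. All values lie above 0, from 0.29 to 0.65, and the call of KAT1 is lost most often.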

How the data were processed

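Spot intensity values come, per the file headers, from version 11.5.1.1 of Agilent's Feature Extraction (design 021169), which subtracts background and detrends within an array. The log2 value table deposited by the authors has probe medians near 0, as its values show. How it was normalised is unstated in the labels. Per the labels, 200 ng of RNA was labelled with Cy3.

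The log2 processed signal was scaled to the 75th percentile of each array. Of 45220 spots, 1417 controls and 25 to 63 outlier spots per array were left out. A probe was tested if well above background on at least 4 of 8 arrays, 33160 of 43603 probes, and a gene was its brightest tested probe. RefSeq transcript names matched 34348 probes to loci of the TAIR10.1 assembly. The array header names TAIR10, so no positions are given, and probe sequences are not used here.

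The comparison of genotypes used limma 3.58.1 (R 4.3.3, with data.table, version 1.17.8), Benjamini-Hochberg adjusted over 25102 genes. The fit was tested on simulated data. Normexp (offset 50) used the median spot signal, where the mean had been planned. The series' text calls the samples biological replicates. The members, lists and tests were chosen with earlier results of these data known. Named were all members, RAP2.9, up to 4 passing genes per list with the largest change, and the 3 genes most like the member with the largest passing change. Other list genes were named after their values were seen, among them ICE1, ERL1, KAT2, KAT3, AKT1 and SLAH3, which did not pass or were below the filter. The number of arrays limits the precision.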

Additional observations from a re-analysis of the deposited data

Results flagged for a closer look

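Within 72 groups of 4 arrays, 3 values lay far from the other 3 arrays of their genotype. Chance gives about 1 in 20 groups, or 3.6 here, so the count was not above chance. For EPF2, transgenic replicate 1 was at -6.03 against -7.95 to -7.76, none of them well above background. For EPFL9, transgenic replicate 3 was at -1.49 against -1.23 to -1.20. For MPK6, transgenic replicate 3 was at 0.36 against 0.22 to 0.24.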

How the results depend on the processing

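Of all genes, 8672 passed, with 53.9% of them higher. That share was 38.6% with median scaling, 3196 higher and 5080 lower. With normexp 2784 of all genes passed, with 0 of the 8 stomatal genes and 7 of the 56 pathway genes. The processing used in the report gave 4 and 25. With normexp 4 of the 8 and 6035 of all genes had an unadjusted p under 0.05 in limma. With no filter on dim probes 14 of 59 pathway genes passed, and 6820 of all 34290 genes. Replicate numbers gave no clear pairing of the arrays. Deviations of same-numbered arrays correlated at 0.155, -0.0923, -0.323 and 0.275 for replicates 1 to 4. The best partner bore the same number for replicates 1 and 4 and another number for replicates 2 and 3. With the replicate block 6970, 5 (SDD1 added, adjusted p = 0.029) and 18 passed. With slide added to the replicate block these were 4620, 2 and 11, with FAMA (adjusted p = 0.0556) and MYB60 (0.0718) lost. That fit leaves fewer degrees of freedom. Leaving out each array in turn gave 6570 to 8342, 3 to 4, and 14 to 27. The log2 change turned sign for EPFL9 without wild-type replicate 2 (-0.0116, with 0.1939 as the highest on leaving out an array) and for ERL2 with normexp (-0.0158). KAT2 turned with normexp (-0.0747), quantile normalization (-0.0742), median scaling (-0.0688), the deposited values (-0.0746) and array weights (-0.0239), and on leaving out an array it ran from -0.0686 to 0.084. The causes were not tested. Signal over background limits SPCH, MUTE and EPF2, which were near or at background.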
